A study of Mus musculus with 10 samples.

Results

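The mature microRNA content of mouse embryonic stem cells without Drosha was compared with that of wild-type cells. The comparison used 4 of the 10 small RNA libraries in the series, chosen by genotype alone: Drosha_KO 1 and Drosha_KO 2, labelled as Drosha knockout, and WT 1 and WT 2, labelled as wild type. All were E14 cells of the 129/Ola background, grown with 15% serum and 100 U/mL LIF (leukaemia inhibitory factor) on 0.2% gelatine, and each library was made from 1 ug of total RNA. The WT libraries came from passages 25 and 33. For Drosha_KO the labels give no clone, passage or way of making the knockout, and nothing states that the libraries of a group are separate cultures. The edgeR and limma p-values rest on the spread within the library pairs of all 5 genotypes, pooled in 1 fit of the 10 libraries. They therefore do not measure the spread of the Drosha_KO and WT pairs alone, and the spread may be technical. Levels in Dgcr8_KO and Dicer_KO, with 2 libraries each, are given where they show how Drosha_KO differed from other mutants of the pathway.

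Drosha is the nuclear RNase III that, with its RNA-binding partner Dgcr8, forms the Microprocessor and cuts the hairpin precursor out of a primary microRNA transcript. Dicer then removes the loop in the cytoplasm and leaves a duplex of a 5p and a 3p arm. Some hairpins reach Dicer by other routes: mirtrons are short introns released by splicing, a few precursors are capped at the transcription start, and some are cut from small nucleolar RNAs (snoRNAs). Embryonic stem cells are known for the microRNAs of the miR-290 to miR-295 and miR-17-92 clusters.

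The sequences that carry the results follow, 5′ to 3′, from the RefSeq tables for GRCm38.p6, in which 1528 of the 1907 entries of the count table had a mature sequence of the same name and a placed hairpin. The first pair are the precursors of mirtrons, shown because each fills an intron from end to end. Mir877 lies in an intron of Abcf1 (chr17:35960730-35960814, minus strand) and Mir1981 in an intron of Marc2 (chr1:184822407-184822488, minus strand). The capitals mark the GU and AG at the intron ends, and the precursor ends were 0 bases from the intron ends annotated in GENCODE M21.
Mir877: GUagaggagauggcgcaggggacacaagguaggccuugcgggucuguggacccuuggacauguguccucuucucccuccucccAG
Mir1981: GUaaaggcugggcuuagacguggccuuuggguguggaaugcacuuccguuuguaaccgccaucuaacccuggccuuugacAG
Mir3068 (chr12:87437679-87437757, minus strand) lies in an intron of Alkbh1, inside a transcript that GENCODE M21 types as a snoRNA. It is shown because its 5p arm made up most of the hairpin's counts in Drosha_KO and few in WT, and the capitals mark the mature arms.
Mir3068: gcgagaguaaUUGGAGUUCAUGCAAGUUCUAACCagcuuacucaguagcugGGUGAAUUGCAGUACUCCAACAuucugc

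The second set are mature microRNAs that share a seed, the bases 2 to 8 that pair with targets, and that nevertheless moved in different directions. The capitals mark the seed.
miR-294-3p: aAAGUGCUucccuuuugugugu
miR-295-3p: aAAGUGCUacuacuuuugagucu
miR-92a-3p: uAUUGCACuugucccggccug
miR-25-3p: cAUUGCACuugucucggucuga
miR-363-3p: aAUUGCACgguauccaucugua
miR-92b-3p: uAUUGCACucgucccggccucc
miR-30a-5p: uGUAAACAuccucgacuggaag
miR-30c-5p: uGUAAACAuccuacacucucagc
miR-30e-5p: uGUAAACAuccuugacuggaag
miR-294-3p and miR-295-3p come from 1 cluster on chromosome 7 that is intergenic in GENCODE M21. The miR-92a-3p hairpin shown by the table lies in an exon of Mir17hg on chromosome 14, with another copy on another chromosome, miR-25-3p lies within Mcm7, exonic or intronic by transcript, and miR-363-3p and miR-92b-3p are intergenic.

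The Drosha_KO libraries held few microRNA counts. Their totals were 39511 and 40306, against 2357868 and 1943868 in WT, and the WT mean was 53.9 times the Drosha_KO mean. The table counts microRNA entries only, so reads from other small RNAs and the depth of the whole library are not known, and fewer microRNA molecules per cell cannot be told apart from a smaller library. A count of 0 in a Drosha_KO library allows up to 75.9 CPM (counts per 1000000 counts of its library) in library 1 and 74.4 CPM in library 2, from 3 counts, and this floor covers counting error only. Of 1112 entries with a count in the 4 libraries, 532 had one in Drosha_KO and 580 in WT alone. Small RNA libraries hold no Drosha mRNA, and the knockout labels could therefore not be checked there. Markers of embryonic stem cells gave a mixed picture. The miR-290 to miR-295 cluster was present in both genotypes, at 21.1% and 20.5% of counts in Drosha_KO and 18.5% and 19.8% in WT. The miR-302 and miR-367 cluster had 0 and 1 counts in Drosha_KO. In WT it stood at 53.9 and 51.4 CPM, under the Drosha_KO floor. The miR-17-92 cluster and its paralogs held 1.28% and 1.44% in Drosha_KO against 18.2% and 19.5% in WT.

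Each entry was therefore compared as a share of its library's total, and "higher" and "lower" below mean a higher or lower share. Of 481 entries tested with edgeR, 278 (57.8%) were called at an adjusted p under 0.05, of which 126 (26.2% of those tested) were higher in Drosha_KO and the rest (31.6%) lower, and the median log2 fold change was -0.87. The libraries of the 2 groups did not overlap in 83.4% of entries tested. Without scaling to totals, 5 entries were higher and 399 lower, with a median of -6.40. The 5 were miR-3068-5p, miR-344d-3p, miR-3535, miR-6239 and miR-6537-3p. Scaling by the trimmed mean of M-values (TMM) moved the median of all entries to -1.47 and gave 112 higher and 196 lower.

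Shares were read by class of entry. Microprocessor-independent entries took 28.5 times their WT share, while entries of canonical lists, whose precursors Drosha is known or thought to cut, kept most of the counts. The 4 lists of entries reported to bypass the Microprocessor, called bypass lists here, summed to 9.74% and 6.73% of counts in Drosha_KO and to 0.266% and 0.311% in WT. The 17 canonical lists summed to 68.8% and 72.3% in Drosha_KO and to 92.3% and 92.6% in WT. Neither class overlapped between the groups.

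As means, the bypass lists held 8.24% ± 2.13 (SD, n = 2) of Drosha_KO counts against 0.289% ± 0.0318 (SD, n = 2) of WT counts. Of their 422 entries, 48 passed the filter on low counts, and 40 of these were higher and 0 lower, with a median log2 fold change of 4.83 and 26.2% higher over all entries. The filter set much of that count: 37 of the 48 lay under its level of 38.54 CPM in both WT libraries, so they passed through libraries of other groups and had little room to be lower. Of the 11 that reached this level in WT, 10 were higher. DESeq2 with column totals called 43 of the 48 higher. In the canonical lists, 22 of 248 entries tested were higher and 108 lower, against 26.2% and 31.6% over all entries, and the median was -1.99. Here 92 of the 248 lay under the filter's level in both Drosha_KO libraries. With TMM, 14 of the 248 were higher, against 112 of all 481 entries tested. For 2 libraries against 2, an exact two-sided permutation test of any share cannot go below p = 0.333, so the sums are given with their ranges only.

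**Figure D1:**
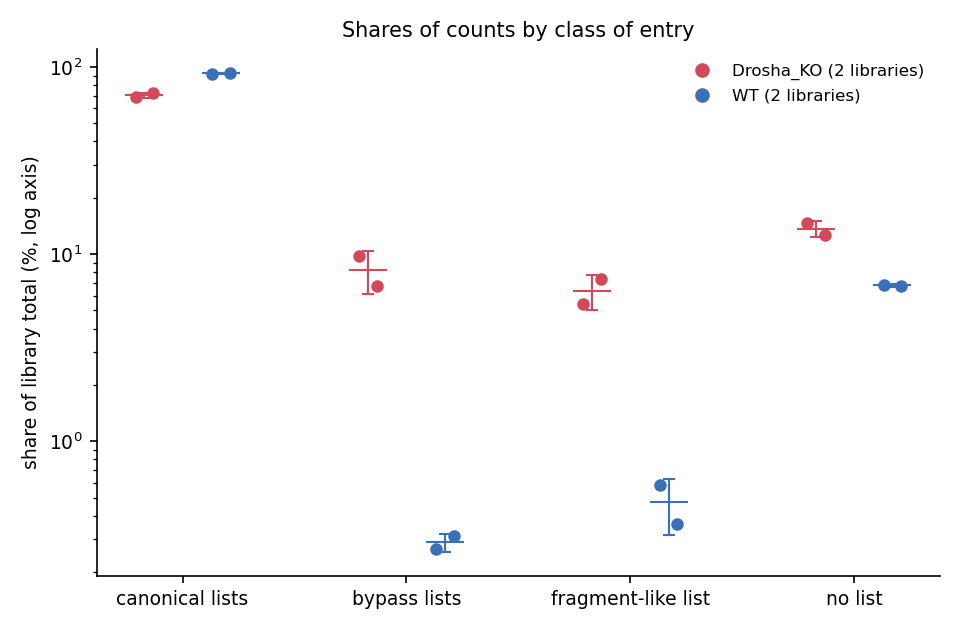
Share of each library's counts (vertical axis, %, log scale) taken by 4 classes of entry in the 2 Drosha_KO and 2 WT libraries; points are libraries, bars the mean and SD. The class of no list includes cell type markers that are in no other list. The canonical lists had a mean of 92.4% in WT and 70.6% in Drosha_KO and the bypass lists 0.289% and 8.24%, with no overlap between the groups.

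Most mirtron arms tested were among the higher entries. All 6 tested arms of the conserved mirtron list (miR-877, miR-702, miR-1224 and miR-1981) rose, and the list held 2.11% and 1.61% of counts in Drosha_KO against 0.0478% and 0.0563% in WT. miR-877-5p stood at 10930 and 7865 CPM in Drosha_KO, while the deep WT libraries held 507 and 526 counts of it. Its mean was 9399 ± 2170 CPM in Drosha_KO and 243 ± 39.3 CPM in WT (SD, n = 2 each), a log2 fold change of 5.27 (SE 0.40, edgeR adjusted p = 1.35e-06). In Dicer_KO, miR-877-5p had 1 count in each library, while Dgcr8_KO held 4642 and 4769 CPM.

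miR-1981-5p had more counts in each Drosha_KO library than in either WT library, before any scaling. Its shares were 4885 and 3573 CPM in Drosha_KO and 54.3 and 53.0 CPM in WT, a log2 fold change of 6.30 (SE 0.45, edgeR adjusted p = 9.63e-07). Its Drosha_KO level of 4229 ± 928 CPM (SD, n = 2) was also above that in Dgcr8_KO, with 832 and 712 CPM (log2 difference 2.45, edgeR adjusted p = 0.00135). miR-702-3p, from an intron of Plod3, had 87 and 92 counts in Drosha_KO and 197 and 198 in WT (log2 fold change 4.59 with SE 0.38, adjusted p = 4.53e-06 by edgeR), and 0 counts in both Dicer_KO libraries. For these 3 arms the groups did not overlap, as for 83.4% of all entries tested.

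Mirtrons defined by position alone were mostly higher too, but this set overlaps the list above. It shares both arms of miR-877 and of miR-1981, which held most of its Drosha_KO counts. In GENCODE M21, 17 hairpins had both ends within 5 bases of the ends of 1 annotated intron, and 9 of their 10 arms tested were higher and 0 lower, with 4 of the 10 under the filter's level in WT and 26.2% of all entries higher. These hairpins held 2.04% and 1.65% of Drosha_KO counts and 0.0897% and 0.112% of WT counts. The exception was miR-6944-3p, from an intron of Dbn1 (drebrin), with 12 and 32 counts in Drosha_KO and 906 and 982 in WT. Its libraries overlapped between the groups, and its log2 fold change was 0.31 (SE 0.44, edgeR adjusted p = 0.565) and changed sign with TMM (-0.29) and without Drosha_KO 2 (-0.55). The hairpin of miR-7068-3p likewise fills an intron, in Cherp. That arm had 42 and 58 counts in Drosha_KO against 247 and 287 in WT, and its share rose by 3.31 on the log2 scale (SE 0.32, edgeR adjusted p = 7.71e-06). In the wider list of high-numbered intronic entries, from miR-6896 to miR-7094, 120 of 403 entries had any count in Drosha_KO and 32 were tested. Of these 32, 30 were under the filter's level in both WT libraries, so the 26 higher and 0 lower calls are largely fixed by the filter and are given as a description.

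Capped and other short hairpins gave the largest single contribution to the bypass counts. miR-484, whose precursor is reported to be the capped 5′ end of a transcript, had 1327 and 1045 counts in Drosha_KO and 2432 and 2324 in WT, or 29760 ± 5416 and 1113 ± 116 CPM (SD, n = 2 each). The log2 fold change was 4.74 (SE 0.36, edgeR adjusted p = 1.35e-06). miR-320-3p, another capped precursor, stood at 14150 and 7269 CPM in Drosha_KO and 321.9 and 380.2 CPM in WT (log2 fold change 4.93 with SE 0.46, adjusted p = 5.71e-06 by edgeR). Both were above both WT libraries in each Drosha_KO library, while 83.4% of all entries tested had groups that did not overlap, in either direction. Both were low in Dicer_KO, with 5 and 2 counts of miR-484 and 5 and 10 of miR-320-3p.

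The miR-344 entries were low but went beyond the WT counts. miR-344-3p had 14 and 16 counts in Drosha_KO and 6 and 8 in WT, always in multiples of 2, and its reference sequence lies at 2 hairpins. miR-344d-3p had 9 and 12 counts in Drosha_KO, in multiples of 3 with 3 hairpins in the reference, and 0 and 0 in WT. Its share was at least 125.8-fold higher, set against 9 counts over both WT libraries, which at 3 counts a read are 3 reads. Counts in such multiples hold fewer separate reads than their number.

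Entries cut from snoRNAs and related small RNAs formed the other large group. Of 20 tested arms whose hairpins overlap an annotated snoRNA, small Cajal body RNA (scaRNA), tRNA or rRNA gene on the same strand, 17 were higher and 0 lower, against 26.2% higher over all entries, and 15 of the 20 were under the filter's level in both WT libraries. All 23 such entries held 4.12% and 2.28% of Drosha_KO counts and 0.0490% and 0.0473% of WT counts. The arms with no call were miR-1291, miR-6516-3p and miR-677-3p. miR-3535, which overlaps a snoRNA in an intron of the nucleolin gene Ncl, had 693 and 356 counts in Drosha_KO and 220 and 159 in WT. Its log2 fold change was 7.23 (SE 0.45, edgeR adjusted p = 5.98e-07), and it was also higher than in Dgcr8_KO by 4.12 (edgeR adjusted p = 4.8e-05) and than in Dicer_KO by 2.18 (edgeR adjusted p = 0.00054). Against Dicer_KO, 43.9% of the 481 entries were called, 30.4% higher and 13.5% lower in Drosha_KO.

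miR-1839-5p, from a scaRNA, had 109 and 70 counts in Drosha_KO and 116 and 79 in WT (log2 fold change 5.64 with SE 0.38, adjusted p = 8.87e-07 by edgeR). miR-664-5p, from Snora36b in an intron of Rab3gap2, had 17 and 16 against 24 and 11 (log2 fold change 5.65 with SE 0.47, adjusted p = 2.73e-06 by edgeR). miR-1843a-5p, chosen after its values were seen, overlaps Scarna3b and had 48 and 21 against 39 and 26 (log2 fold change 5.83 with SE 0.57, adjusted p = 1.33e-05 by edgeR). In each of these the shares of the groups did not overlap, as for 83.4% of all entries tested. The counts were near those of WT although the library totals were far smaller.

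miR-3068 differed from WT in the arm it kept as well as in its level. The 5p arm had 435 and 275 counts in Drosha_KO and 8 and 4 in WT. The 3p arm stood at 3619 and 2208 CPM in Drosha_KO and 46.6 and 55.0 CPM in WT. The 5p arm thus made up 75.3% and 75.6% of the hairpin's counts in Drosha_KO, and 6.78% and 3.60% in WT.

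miR-3068-5p had the highest log2 fold change of the entries tested, 11.54 (SE 0.55, edgeR adjusted p = 5.98e-07), and miR-3068-3p rose by 5.84 (SE 0.41, edgeR adjusted p = 9.63e-07). The log2 ratio of the arms moved by 5.75 towards 5p (SE 0.48, limma adjusted p = 0.000173). Dgcr8_KO did not share this: its 5p arm made up 6.77% and 7.40% of the hairpin's counts. Against Dgcr8_KO, miR-3068-5p was higher by 6.47 (edgeR adjusted p = 3.4e-05) and miR-3068-3p by 1.16 (edgeR adjusted p = 0.0454). In Dicer_KO, the 5p arm had 0 counts in both libraries and the 3p arm 43 and 29.

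Arm balance was tested with limma on 108 hairpins, of which 18 (16.7%) passed. On simulated data the same test called 11 of 80 unchanged hairpins, so its calls include more false ones than the threshold implies. In 14 of the 18, at least 1 Drosha_KO library held under 20 counts over both arms, so the ratio there rests largely on the pseudocount of 0.5. Among 34 hairpins with at least 20 such counts in each Drosha_KO library, an alternative chosen after seeing the data, 4 passed: miR-3068, miR-181c, miR-96 and miR-101a. In miR-181c, the 5p arm made up 57.4% and 66.7% of counts in Drosha_KO and 84.9% and 84.2% in WT (log2 difference -1.75, SE 0.44, limma adjusted p = 0.026 over all 108). That call was lost without either WT library and without Drosha_KO 1. In miR-96 and miR-101a the rarer arm had 0 or 1 counts in each Drosha_KO library.

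**Figure D2:**
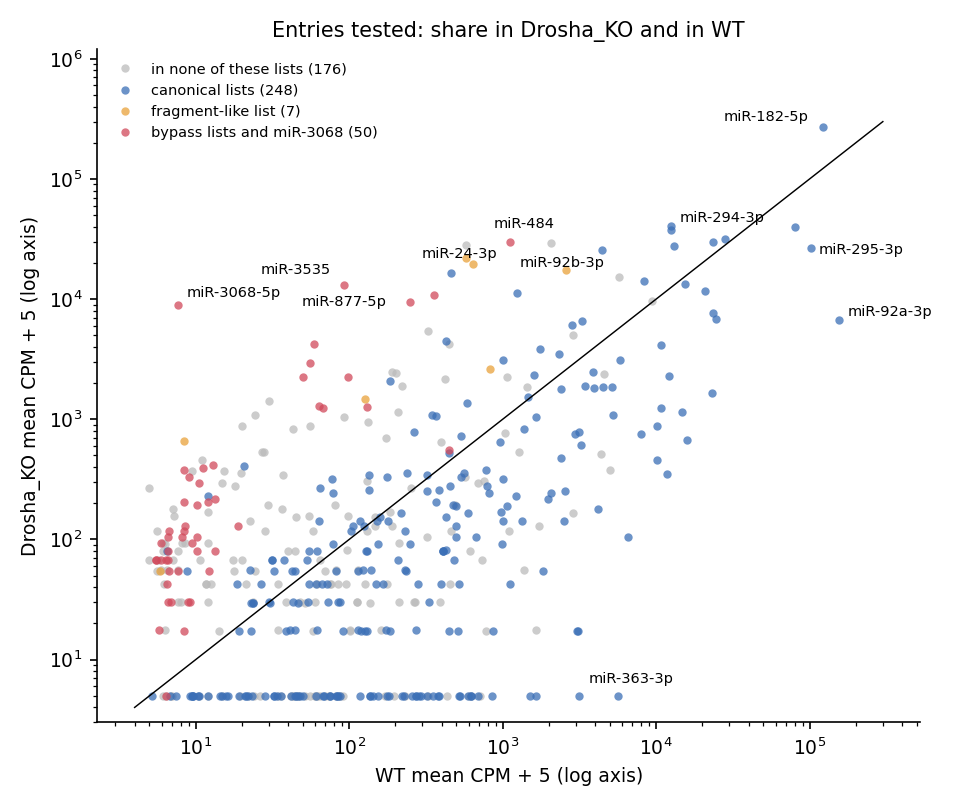
Mean share of the 481 entries tested in WT (horizontal axis) and Drosha_KO (vertical axis), in CPM plus 5, both on log scales, coloured by class; the line marks equal shares. miR-3068-5p, miR-3535, miR-877-5p and miR-484 lie far above the line, miR-92a-3p and miR-363-3p below it, and miR-182-5p, miR-24-3p and miR-92b-3p above it.

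The shares of canonical entries did not change evenly. Of 66 canonical entries with at least 1000 CPM in WT, 4 had no count in Drosha_KO, 40 were lower and 10 higher. Over all entries tested, 31.6% were lower and 26.2% higher. The 66 were chosen for a high WT level, which favours lower calls and ratios below 1, so these counts are a description. The ratio of the Drosha_KO share to the WT share had a median of 0.259 and quartiles of 0.0799 and 0.842, and the highest was 9.13 for miR-290a-5p. The residual counts were concentrated in few entries. miR-182-5p alone made up 38.4% of the canonical counts in Drosha_KO and 13.3% in WT, and the 10 canonical entries most abundant in Drosha_KO 73.8% there and 35.4% in WT.

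miR-182-5p, from the miR-183, miR-96 and miR-182 cluster known from sensory organs, was the most abundant entry of Drosha_KO. It had 11846 and 9776 counts in Drosha_KO and 296189 and 233817 in WT, a log2 fold change of 1.14 (SE 0.24, edgeR adjusted p = 0.00156), which was 0.51 with TMM (edgeR adjusted p = 0.0616). Its cluster mate miR-183-5p had 442 and 482 counts against 51204 and 38259, and its share fell by 0.84 on the log2 scale (edgeR adjusted p = 0.0193; 0.0849 without WT 1). miR-96-5p had 52 and 33 against 874 and 694, and rose by 1.55 (edgeR adjusted p = 0.00157). The arms of 1 cluster, thought to come from 1 primary transcript, thus moved in both directions.

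The miR-290 to miR-295 cluster, the main microRNA cluster of mouse embryonic stem cells, kept its summed share but changed its makeup. Of 14 entries tested, 7 were higher and 4 lower, against 26.2% and 31.6% over all entries, so the part that was lower was near that of all entries. miR-294-3p had 1510 and 1464 counts in Drosha_KO and 27815 and 25540 in WT, and its share rose by 1.58 on the log2 scale (SE 0.33, edgeR adjusted p = 0.00156). miR-295-3p, which has the same seed, had 1081 and 1050 against 231781 and 203630, and fell by 1.93 (SE 0.24, edgeR adjusted p = 4.85e-05). miR-291a-3p of the same cluster had 1139 and 912 against 10143 and 8841, and rose by 2.54 (SE 0.29, edgeR adjusted p = 2.14e-05).

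In WT, miR-295-3p far outnumbered miR-294-3p, while in Drosha_KO miR-294-3p was the more abundant. miR-291a-5p had 1557 and 1678 counts against 28276 and 25057, and rose by 1.70 (SE 0.24, edgeR adjusted p = 8.93e-05). Among entries chosen after their values were seen, miR-290a-5p had 428 and 473 counts against 2859 and 2449 (log2 fold change 3.19 with SE 0.30, adjusted p = 6.16e-06 by edgeR). miR-293-3p went the other way, with 35 and 35 against 22972 and 20323 (log2 fold change -3.53 with SE 0.31, adjusted p = 3.67e-06 by edgeR), and miR-293-5p fell by 3.12 (edgeR adjusted p = 1.28e-05). The groups did not overlap for any of these entries, as for 83.4% of all tested.

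The miR-17-92 cluster and its paralogs, which promote proliferation, held a lower summed share. Of 26 entries tested, 17 were lower, 0 higher and 9 showed no call, against 31.6% lower over all entries, 8 had no count in Drosha_KO, and the summed share went from 18.2% and 19.5% in WT to 1.28% and 1.44% in Drosha_KO. miR-92a-3p, the most abundant entry of WT, had 355897 and 313144 counts there and 247 and 286 in Drosha_KO, and fell by 4.55 on the log2 scale (SE 0.24, edgeR adjusted p = 2.41e-07). miR-25-3p had 24134 and 19533 counts against 15 and 21 (log2 fold change -4.49 with SE 0.39, adjusted p = 3.63e-06 by edgeR). miR-363-3p had 12068 and 11836 counts in WT and 0 and 0 in Drosha_KO, at least 147.8-fold lower against 3 counts over both libraries.

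miR-92b-3p has the seed of these 3 and a hairpin of its own on chromosome 3. Chosen after its values were seen, it had 610 and 608 counts in Drosha_KO and 12740 and 11814 in WT. Its share rose by 1.41 (SE 0.26, edgeR adjusted p = 0.000742), so it outnumbered miR-92a-3p in Drosha_KO and was far below it in WT.

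The miR-30 family, which shares 1 seed, also split. miR-30a-5p had 614 and 523 counts in Drosha_KO and 21537 and 14767 in WT (log2 fold change 0.77 with SE 0.30, adjusted p = 0.0441 by edgeR), a call that was lost with TMM (adjusted p = 0.664), without the Dlk1-Dio3 cluster in the totals (0.137), without a filter (0.0802) and without Drosha_KO 1, WT 1 or WT 2 (0.11, 0.08 and 0.191). miR-30c-5p stood at 3138 and 3126 CPM against 5558 and 6020 CPM (log2 fold change -0.89 with SE 0.27, adjusted p = 0.0151 by edgeR, and 0.0551 and 0.0842 without WT 1 and WT 2). miR-30e-5p had 23 and 37 against 18767 and 15484, and fell by 3.41 (SE 0.32, edgeR adjusted p = 6.11e-06). miR-26a-5p, with 1386 and 1122 counts against 68405 and 53044, showed no call (log2 fold change 0.16 with SE 0.23, adjusted p = 0.56 by edgeR), and its sign changed with TMM (-0.47), without the Dlk1-Dio3 cluster in the totals (-0.068) and without Drosha_KO 1 (-0.016).

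In the miR-23, miR-27 and miR-24 clusters, 2 of 9 entries tested were higher and 5 lower, against 26.2% and 31.6% over all entries. The higher entries were miR-24-3p and the rare miR-24-1-5p, which had 3 and 3 counts in Drosha_KO and 7 and 0 in WT. miR-24-3p had 726 and 596 counts in Drosha_KO and 1140 and 822 in WT, or 18370 and 14790 CPM against 483.5 and 422.9 CPM, and rose by 5.19 on the log2 scale (SE 0.37, edgeR adjusted p = 9.63e-07). miR-27a-3p, whose hairpin lies next to 1 of the 2 miR-24 hairpins on chromosome 8, had 6 and 7 counts against 2263 and 1914, and fell by 2.58 (SE 0.37, edgeR adjusted p = 0.000126). miR-27b-3p, near the other on chromosome 13, had 24 and 29 against 35349 and 32502, and fell by 4.58 (SE 0.31, edgeR adjusted p = 9.63e-07). The miR-24-3p level was also above that of Dgcr8_KO, with 591 and 626 CPM (log2 difference 4.77, edgeR adjusted p = 2.4e-05), and Dicer_KO held 2 and 4 counts.

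Among other canonical families, let-7g-5p, a let-7 member of differentiating cells, stood at 2404 and 1762 CPM in Drosha_KO and 174.3 and 182.1 CPM in WT, and rose by 3.55 (SE 0.39, edgeR adjusted p = 1.74e-05). It was the only one of 10 let-7 and miR-98 entries tested that was higher, against 26.2% over all entries. Of the rest, let-7e-5p, with no count in Drosha_KO, was lower and 8 showed no call. The family median was -0.66 on the log2 scale. Its summed share was nevertheless higher, at 0.694% and 0.566% in Drosha_KO against 0.181% and 0.199% in WT. miR-16-5p, a regulator of the cell cycle, had 282 and 262 against 60261 and 45935, and fell by 1.85 (SE 0.27, edgeR adjusted p = 0.000119). miR-130b-3p had 0 and 1 against 6987 and 6221. In the miR-15 and miR-16 family 5 of 12 tested were lower and 0 higher, and in the miR-130 and miR-301 family 5 of 6 were lower and 0 higher, against 31.6% lower over all entries. Sequence features were read in 90 canonical entries outside the Dlk1-Dio3 cluster that had a RefSeq sequence and a count in Drosha_KO. Among these, the log2 fold change showed little relation to GC content (Pearson r = -0.06 and Spearman rho = -0.06 across entries, which share their libraries). The median was -0.31 for 48 5p arms and -1.37 for 42 3p arms. Entries without a count in Drosha_KO were left out, so these medians cannot be set beside that of all canonical entries tested.

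**Figure D3:**
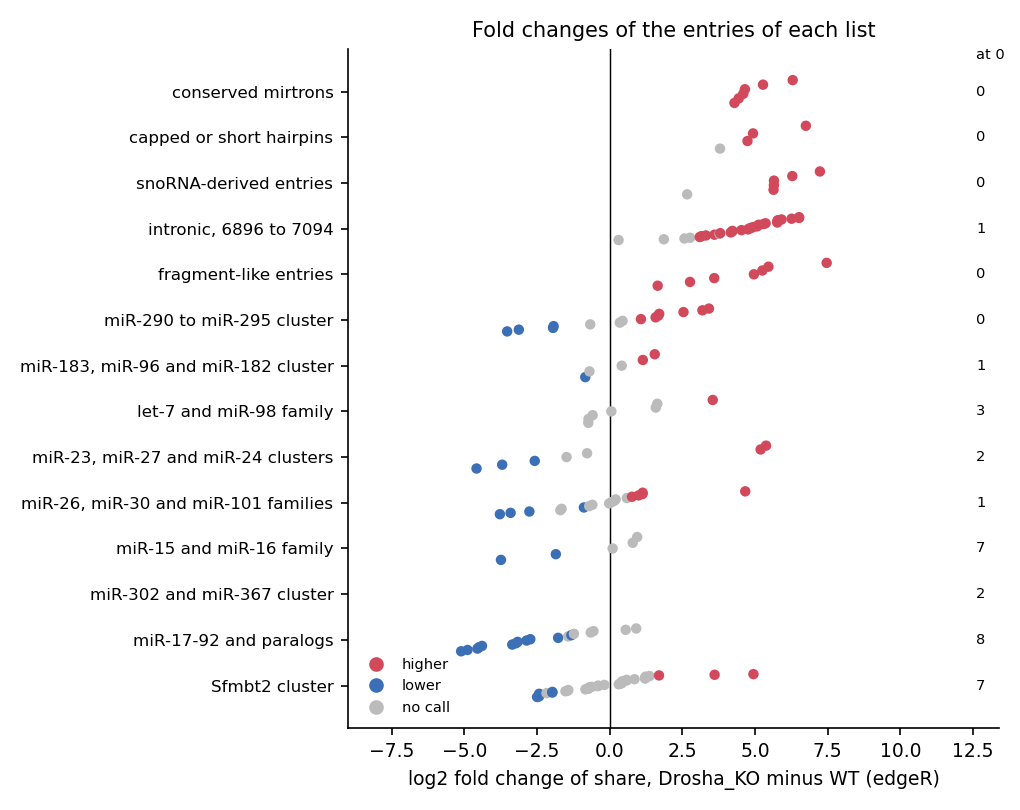
Log2 fold change of share, Drosha_KO minus WT (horizontal axis, edgeR), for each tested entry with a count in Drosha_KO, by list; colour shows the call at adjusted p under 0.05 and the right-hand column the number of tested entries at 0 counts in Drosha_KO. The bypass and fragment-like lists lie to the right of 0, the miR-17-92 group lies mostly to the left, and the miR-290 to miR-295 cluster spans both sides.

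Entries reported to overlap tRNA, rRNA or repeats were higher too, in all 7 tested against 26.2% over all entries. They held 5.42% and 7.33% of Drosha_KO counts, 0.584% and 0.361% of WT counts, and 57.2% and 62.1% of Dicer_KO counts. miR-1983, reported to come from a tRNA, had 748 and 993 counts in Drosha_KO and 1214 and 1223 in WT, a log2 fold change of 5.25 (SE 0.33, edgeR adjusted p = 5.98e-07), and 4 and 5 in Dicer_KO. miR-5126 stood at 8858 and 30640 CPM against 1194 and 73.0 CPM, so the libraries of both groups differed among themselves, and its log2 fold change of 4.96 (SE 1.04, edgeR adjusted p = 0.00172) was 8.07 without WT 1 and 3.80 without Drosha_KO 2. miR-6539 and miR-5099, in none of the lists, were among the 10 most abundant entries of Drosha_KO, with 1276 and 960 counts of miR-6539 against 1313 and 1131 in WT (log2 fold change 5.62 with SE 0.30, adjusted p = 2.41e-07 by edgeR). miR-5099 had 1228 and 1091 against 3804 and 4891 (log2 fold change 3.82 with SE 0.28, adjusted p = 1.34e-06 by edgeR). In Dicer_KO they stood at 84980 and 81470 CPM for miR-6539 and 66250 and 70470 CPM for miR-5099.

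Against Dgcr8_KO, the mutant of the other Microprocessor subunit, 40 of 481 entries (8.32%) were higher and 27 (5.61%) lower in Drosha_KO. The bypass lists held 4.19% and 4.0% of counts in Dgcr8_KO, below both Drosha_KO libraries, and the canonical lists 76.5% and 77.2%. Besides the entries given above, miR-138-5p, an entry of neural cells, had 46 and 104 counts in Drosha_KO and 22 and 52 in the deeper Dgcr8_KO libraries (log2 difference 4.18, edgeR adjusted p = 0.000188). miR-7a-5p, chosen after its values were seen, had 94 and 99 against 18 and 27 (log2 difference 5.23, edgeR adjusted p = 4.8e-05). miR-293-3p was above Dgcr8_KO (log2 difference 2.70, edgeR adjusted p = 0.000188) although far below WT.

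Markers of other cell types, whose part in these results was not tested, were called in both directions, beside 26.2% higher and 31.6% lower over all entries. Fibroblast or feeder markers were lower in 2 of 6 tested and held 0.463% and 0.695% of Drosha_KO counts against 1.87% and 1.95% in WT. Blood markers were higher in 2 and lower in 1 of 6, at 0.572% and 0.360% against 0.202% and 0.155%. miR-142a-5p stood at 2911 and 1389 CPM against 579 and 250.0 CPM (log2 fold change 2.37 with SE 0.48, adjusted p = 0.00141 by edgeR), and miR-451a had none in Drosha_KO, where its WT level lies under the floor given above. Neural markers were higher in 1 and lower in 3 of 7, at 0.177% and 0.325% against 0.316% and 0.346%. Liver and gut markers were higher in 1 and lower in 1 of 3, at 0.0405% and 0.0174% against 0.163% and 0.156%, and muscle markers had 0 counts in Drosha_KO against 16.1 and 14.4 CPM in WT, also under the floor. miR-1306, which lies in the Dgcr8 transcript, had 0 counts in Drosha_KO against 61 and 55 in WT, a WT level of 25.9 and 28.3 CPM that lies under the Drosha_KO floor, so a difference was not detectable at this depth.

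The Drosha_KO libraries disagreed with each other over nearly the whole of the Dlk1-Dio3 cluster, an imprinted region of chromosome 12 whose maternal allele makes many microRNAs. Library 1 held 6 counts of the cluster and library 2 held 4392. As shares, this was 0.0152% and 10.9%, against 19.1% and 19% in WT and 22.2% and 22.7% in Dgcr8_KO. Library 1 therefore lacked nearly the whole cluster, while library 2 lay between it and WT.

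The 6 counts of library 1 were 4 of miR-127-3p and 1 each of miR-382-3p and miR-541-5p. Within library 2, the members fell unevenly. Of 37 entries that would have at least 10 counts there at their WT share, 12 had none, 23 were more than 4-fold below the WT share and 2 were at or above it, with a median ratio of 0.083. miR-127-3p had 3220 counts in library 2, which was 0.991 of the WT share, and made up 73.3% of the cluster's counts against 42.3% in WT. miR-431-5p had 146 (ratio 0.923) and miR-410-3p stood at 8361 CPM (ratio 0.78).

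Neighbours along the chromosome went another way. miR-434-3p had 28 counts in library 2 (ratio 0.0588), miR-541-5p stood at 3300 CPM (ratio 0.142), and miR-673-5p, miR-540-3p and miR-758-3p had none, where the WT share gives 60.7 and 65.8 counts for the first pair and more for miR-758-3p. In the fit over both libraries, 45 of 65 entries of the cluster were lower and 0 higher, against 31.6% lower over all entries. miR-127-3p, miR-431-5p and miR-410-3p showed no call (edgeR adjusted p = 0.539, 0.362 and 0.333), and without Drosha_KO 2 all 3 were lower (edgeR adjusted p = 5.56e-10, 6.63e-08 and 1.25e-08). The other canonical lists held 68.8% and 61.4% of Drosha_KO counts and 73.2% and 73.6% of WT counts. These totals keep the cluster, which took 0.0152% of library 1 and 10.9% of library 2. The 2 Drosha_KO shares therefore differ in their base, and their gap is not a measure of the other canonical entries.

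**Figure D4:**
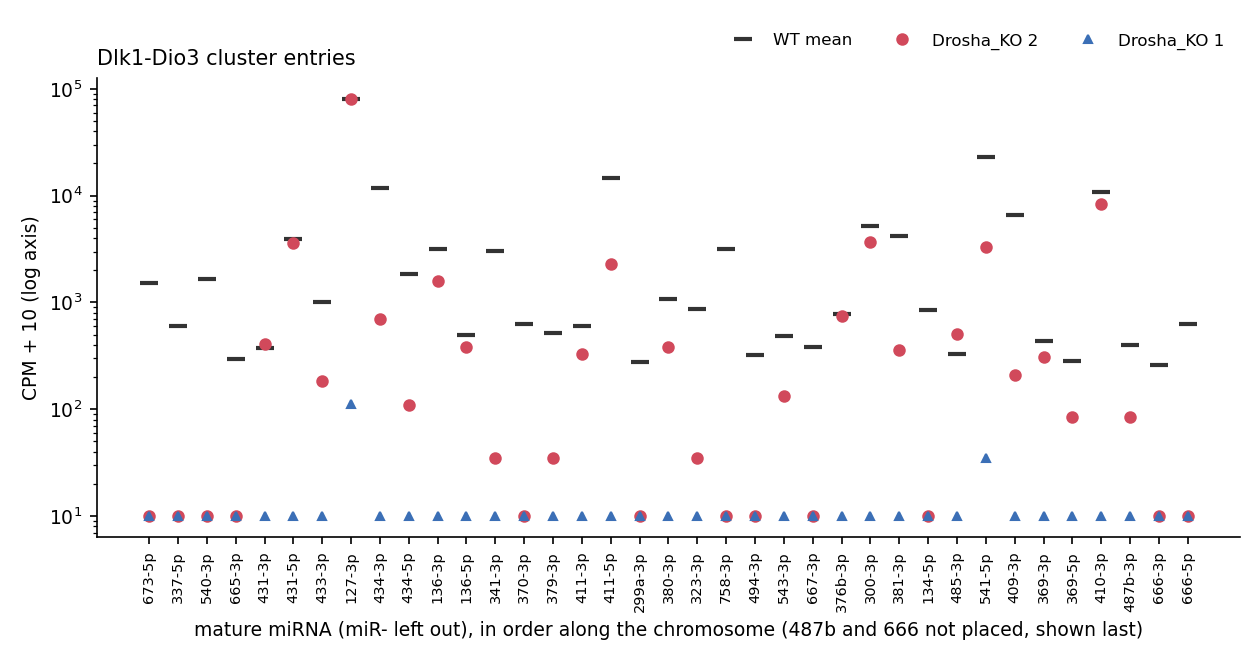
Level (vertical axis, CPM plus 10, log scale) of the 37 Dlk1-Dio3 entries that would have at least 10 counts in Drosha_KO 2 at their WT share, in order along the chromosome, with 3 that could not be placed at the right. Drosha_KO 1 (triangles) is at 0 in 35 of the 37, and Drosha_KO 2 (circles) meets the WT mean (bars) at miR-127-3p and falls to 0 at 12 entries.

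Fisher's exact test between the 2 Drosha_KO libraries, which compares libraries and not conditions, set 53 of 190 entries apart (27.9%) at an adjusted p under 0.05, 25 higher in library 1 and 28 in library 2. With the cluster left out of the totals, 36 of 172 were apart (20.9%), so most of the entries apart lay outside it. The far deeper WT pair gave 186 of 626 (29.7%). The count of entries more than 2-fold apart among those with at least 500 CPM also depends on depth. That level stands for far fewer counts in Drosha_KO than in WT. The count was 17 of 102 (16.7%) in Drosha_KO and 1 of 119 (0.84%) in WT, namely miR-5126. Without the cluster it was 8 of 96 in Drosha_KO: miR-138-5p, miR-1843a-5p, miR-1843b-5p, miR-335-3p, miR-467a-3p, miR-5100, miR-5126 and miR-6944-3p. The Dicer_KO pair, with totals near those of Drosha_KO, is the closer match in depth. Its part more than 2-fold apart was below the 16.7% of Drosha_KO and far above that of WT. Without the cluster it was 10.9% in Dicer_KO, above that of Drosha_KO. Outside the cluster, the Drosha_KO pair was therefore not more discordant by this measure than a pair of similar depth. Across the 481 entries tested, the log2 CPM of the Drosha_KO libraries correlated with r = 0.796, and with r = 0.888 without the cluster, against 0.989 in the far deeper WT pair.

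**Figure D5:**
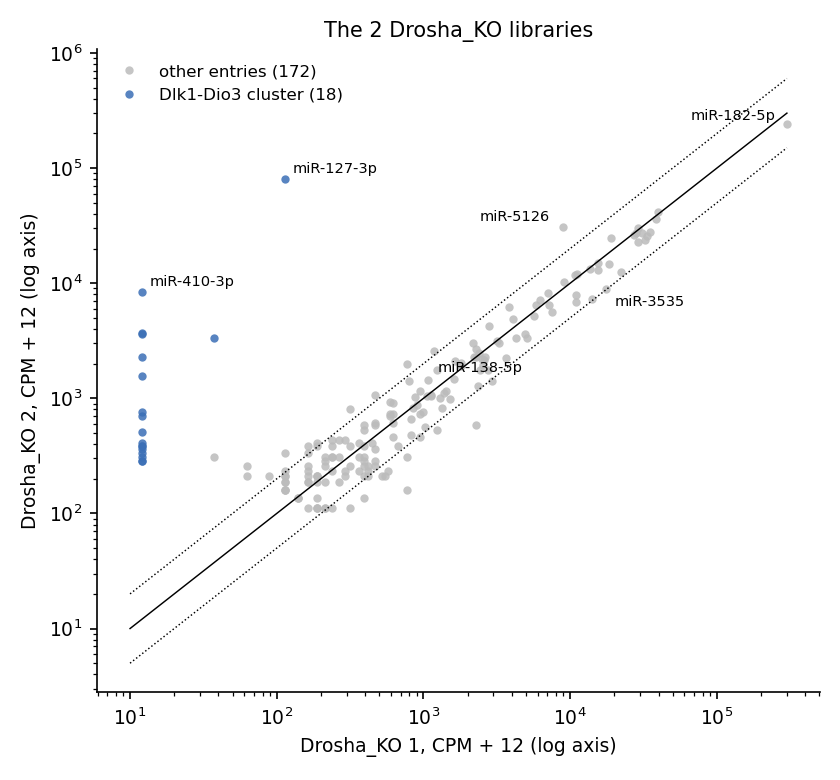
Level of each entry with at least 10 counts over the pair in Drosha_KO 1 (horizontal axis) and Drosha_KO 2 (vertical axis), in CPM plus 12 on log scales; the solid line marks equal levels and the dotted lines 2-fold differences. The 18 Dlk1-Dio3 entries lie along the left edge, absent or nearly so from library 1, while most of the other 172 follow the line.

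Library 1 held more of the Microprocessor-independent entries in 3 of the 4 bypass lists. Its bypass share of 9.74% (exact 95% interval 9.45 to 10.04) was above the 6.73% of library 2 (6.49 to 6.98). Its 851 counts of snoRNA-derived entries compared with 461 in library 2, its 1901 of capped or short hairpins with 1356, and its 832 of conserved mirtrons with 650. The high-numbered intronic entries, with 265 and 247, showed no call (Fisher adjusted p = 0.342, exact test). Single entries followed: miR-3535 had 693 and 356 counts (Fisher adjusted p = 3e-26, exact test) and miR-320-3p 14150 and 7269 CPM (Fisher adjusted p = 3.08e-20, exact test), while miR-702-3p, with 87 and 92, showed no call (Fisher adjusted p = 0.93, exact test). These shares use totals that include the Dlk1-Dio3 cluster, 10.9% of library 2 and 0.0152% of library 1, which lowers the shares of library 2. With the cluster out of the totals, miR-3535 and miR-320-3p were still apart (Fisher adjusted p = 1.63e-17 and 1.3e-13, exact test). Library 2 held more of the fragment-like entries, with 2955 counts against 2140. The bypass share of each Drosha_KO library was above that of both WT libraries, which held 0.266% and 0.311%. Calls for each library alone are not given, because 37 of the 48 bypass entries tested lay under the filter's level in both WT libraries. Those entries had little room to be lower.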

How the data were processed

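Small RNA libraries (TruSeq kit, HiSeq2000, per the labels) were counted by the authors, who deposited 1 table of raw read counts for 1907 mature microRNA entries, whole numbers without normalization. Bowtie and mm10 are named in the submitters' processing notes; their versions, the counter and how reads with several placements were treated were not given in the sources used here, and some entries hold only multiples of a number above 1. Total counts per library ran from 37476 to 2357868.

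Tests of counts used the quasi-likelihood method of edgeR 4.0.16 under R 4.3.3, in 1 fit of all 5 groups (5 residual degrees of freedom). Library sizes were the column totals, with no TMM factor. The filter was filterByExpr by group (minimum count 10, 38.54 CPM, minimum total 15; 481 entries kept) and Benjamini-Hochberg adjustment over all entries tested, at 0.05. DESeq2 1.42.0 was an alternative. Arm ratios were tested with limma 3.58.1 on log2 ratios with a pseudocount of 0.5 where both arms of a hairpin averaged 20 counts or more. Libraries of 1 group were compared by Fisher's exact test for entries with at least 10 counts in the pair (scipy 1.17.1). Share intervals are exact Clopper-Pearson intervals at 95% and cover counting error only. Hairpins were placed with GENCODE M21 on GRCm38. Scripts were tested on simulated data. There edgeR recovered 35%, 55.6% and 73.5% of 2-fold, 4-fold and 8-fold changes, and 2.63% of its calls were unchanged entries. The arm test called 11 of 80 unchanged hairpins and 13 of 31 shifted 4-fold. With at least 20 counts over both arms in each Drosha_KO library, it called 2 of 27 unchanged and 2 of 7 shifted hairpins.

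Members and lists were chosen with earlier results of these data known. Named entries are the 10 highest and 10 lowest calls with groups that do not overlap and a level of 50 CPM or more, up to 4 members from each of 30 lists, the 10 most abundant in Drosha_KO and 5 in WT, the 10 smallest Fisher p-values between the Drosha_KO libraries, and the other arms of these; the text gives a subset. Entries named only to complete a count, such as miR-677-3p, miR-24-1-5p and let-7e-5p, were chosen after their values were seen.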

Additional observations from a re-analysis of the deposited data

How the results depend on the processing

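Totals set most directions, and depth limits the rest: 111 of the 481 entries tested had no count in Drosha_KO, and TMM moved the median of all entries from -0.87 to -1.47 on the log2 scale. Without scaling to totals the numbers were 5 entries higher and 399 lower, 1 bypass entry higher and 11 lower, and 0 canonical entries higher and 242 lower, and 26 named entries changed sign. Their log2 values were miR-877-5p -0.46, miR-702-3p -1.14, miR-484 -1.0, miR-320-3p -0.81, miR-1839-5p -0.12, miR-664-5p -0.084, miR-7068-3p -2.41, miR-6944-3p -5.42, miR-1983 -0.49, miR-5126 -0.90, miR-6539 -0.13, miR-5099 -1.91, miR-182-5p -4.62, miR-96-5p -4.20, miR-290a-5p -2.56, miR-291a-3p -3.21, miR-291a-5p -4.04, miR-294-3p -4.17, miR-92b-3p -4.33, miR-26a-5p -5.60, miR-30a-5p -5.0, miR-24-3p -0.57, let-7g-5p -2.20, miR-138-5p -2.63, miR-7a-5p -2.14 and miR-142a-5p -3.44. Under the other settings, 652 of 676 values of the 52 named entries kept their direction and call. The sign of miR-26a-5p changed with TMM (-0.47), with the Dlk1-Dio3 cluster out of the totals (-0.068) and without Drosha_KO replicate 1 (-0.016), and that of miR-6944-3p with TMM (-0.29) and without Drosha_KO replicate 2 (-0.55). Without 1 library at a time, miR-26a-5p ran from -0.016 to 0.32 and miR-6944-3p from -0.55 to 0.84; neither was called in the main fit, and the cause was not tested. TMM gave 14 canonical entries higher, and no filter on low counts, which tests 1262 entries, gave 73 bypass entries higher. Of 840 recomputed counts over the 30 lists, 727 stayed within 1.5 times, and 39 of the 113 that moved did so without scaling. With TMM, 13 Sfmbt2 entries were lower and 1 higher, and without a filter 58 high-numbered intronic entries were higher. With a block for the replicate number, 26% of entries were higher and 30.1% lower, and 39 bypass entries were higher; the deviations of same-numbered libraries correlated at r = 0.02, so the numbers did not pair the samples. Leaving out 1 library at a time gave 113 to 123 entries higher and at least 113 lower.

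With fragment-like entries out of the denominator the canonical share was 75.4% in Drosha_KO and 92.9% in WT. With the Dlk1-Dio3 cluster out of it, the WT shares were 90.6% for the canonical and 0.357% for the bypass lists. Entries over 2-fold apart between the Drosha_KO libraries numbered 8 without that cluster and 11 at a mean of at least 1000 CPM. In arm balance, 55 hairpins were called with a pseudocount of 2, 11 with at least 50 counts per arm, 4 with at least 20 counts in each Drosha_KO library, and 4 to 29 without 1 library. With a window of 2 bases in place of 5, 1 entry at a transcript start was higher.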

Other observations

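Entries outside the canonical, bypass and fragment-like lists and those of miR-3068, miR-451a and miR-1306, some of them cell type markers, also held calls in both directions. Of 176 tested, 55 were higher and 44 lower in Drosha_KO, near the 26.2% and 31.6% over all entries, and they held 14.6% and 12.7% of Drosha_KO counts against 6.87% and 6.74% of WT counts. Before any scaling, 20 entries had more counts in each Drosha_KO library than in either WT library, although the totals were far smaller, most with under 20 counts over the Drosha_KO pair. Those with 20 or more were miR-1981-5p, miR-3068-5p, miR-344-3p, miR-344d-3p, miR-3535, miR-6239 and miR-664-3p. miR-6239, reported to overlap repeats, had 23 and 29 counts in Drosha_KO and 9 and 6 in WT.

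The Sfmbt2 cluster, a large repeated cluster in an intron of Sfmbt2, had 3 of 44 tested entries higher and 8 lower. Over all entries tested, 26.2% were higher and 31.6% lower. Of the 3 higher entries, 2 were under the filter's level in both WT libraries. The cluster held 0.79% and 1.23% of counts in Drosha_KO and 1.92% and 1.24% in WT. Its WT libraries differed in share, and counts of miR-467a-5p came in multiples of 10, so its entries hold fewer separate reads than their counts.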
